A study of Mus musculus with 48 samples.

Results

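The effect of a 30% dietary restriction on the liver of wild-type mice was read from 10 of the 24 mice of the series. The mice were chosen by their titles in the records alone, 5 wild-type restricted animals (WT-DR, animals 421 to 425) and 5 wild-type control animals (WT-Control, animals 401 to 405), without use of any measured value. WT-Control mice ate ad libitum, whereas the food of WT-DR mice was cut in 3 weekly steps of 10%, the first at 7 weeks of age and the last, to the full 30%, at 9 weeks. Livers were taken from all mice at 11 weeks of age. All mice shared an F1 C57BL6J/FVB hybrid background, were fed AIN93G pellets, and the wild-type mice were littermates of Ercc1Δ/- mice. Ercc1Δ/- mice carry a null and a truncated allele of the Ercc1 repair endonuclease, and 5 of them on the same restriction (DR 30%) and 5 fed ad libitum (Control) served here to show where the response of wild-type mice differed. A further 4 Ercc1Δ/- mice fed 14 ppm rapamycin entered only the estimate of the spread. The restricted meals were handed out just before the dark period, and the amounts of food in the records refer to the intake of the mutants, so that the grams offered to WT-DR mice are not given in the sources used here. The hour of tissue collection and the time since the last meal are likewise not given in the sources used here. RNA was measured on 1 Affymetrix HT MG-430 PM array per mouse, and levels below are the deposited log2 values of robust multi-array averaging (RMA), on which a difference of 1 is a doubling.

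The liver answers a shortage of food through several hormones. Less insulin and more glucagon and glucocorticoid shift hepatocytes from storing to releasing fuel, and feeding times set the phase of the hepatic clock, in which the activators Arntl and Clock drive the repressors Per and Cry that in turn silence them. Growth hormone reaches the liver in pulses in male mice and more evenly in female mice. The male pulse pattern, read by STAT factors with the repressor Bcl6, keeps genes such as Hsd3b5, Cyp4a12a and Elovl3 high and the female-biased genes Cyp2b9, Sult3a1 and Cux2 low.

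The 10 arrays were of even quality. Array medians lay between 4.16 and 4.20, and the correlation over all 45141 probe sets was 0.992 to 0.995 between mice of the same WT group and 0.980 to 0.988 between WT-DR and WT-Control mice. The first principal component of the 10 mice held 53.1% of the variance and separated the groups, with WT-DR 421 nearest to WT-Control. None of the 104 control probe sets was called. The arrays also carried the marks of hepatocytes, whose 12 marker genes had a mean level of 12.46 to 12.57 in WT-Control and 12.57 to 12.65 in WT-DR. The Y-linked gene Eif2s3y measured 9.65 to 9.86 in WT-Control and 9.83 to 10.20 in WT-DR, with Xist at 3.87 to 4.34 and 3.96 to 4.35, which is the pattern of male tissue in all 10 mice. Ercc1 itself was at 6.57 to 6.85 in WT-Control and 5.99 to 6.46 in WT-DR, a change (± standard error) of -0.39 ± 0.09, adjusted p = 0.0053 that stayed under the fold threshold. A pair of WT-Control mice, 403 and 405, stood apart from the other 3 in clock genes (Usp2 at 5.18 and 4.33, against 7.60 to 8.46), and results that rest on them are also given without them.

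Restriction changed the liver transcriptome of WT mice in both directions. A differentially expressed gene (DEG) had a false discovery rate (FDR) under 0.05 in limma, adjusted over all probe sets, and a fold change of at least 1.5, which is 0.585 on the log2 scale. Of the 45141 probe sets, 1538 (3.41%) were higher and 1187 (2.63%) were lower in WT-DR. These probe sets represented 697 named genes with a higher and 741 with a lower probe set. Changes of at least 2-fold were seen in 430 higher and 398 lower probe sets, and changes of at least 8-fold in 28 and 17. All 5 WT-DR mice lay above all 5 WT-Control mice in 1132 of the higher probe sets (73.6%), and all 5 lay below them in 953 of the lower ones (80.3%). Over all probe sets the share with all WT-DR mice above was 6.7%, and with all below 6.61%. Probe sets that the annotation used here does not pair with exactly 1 gene made up 43.5% of the higher and 22.0% of the lower DEGs, beside 36.0% of all probe sets. For the gene lists below, each of 17097 genes was represented by its probe set with the highest mean, of which 488 (2.85%) were higher and 601 (3.52%) lower, with a median change over all genes of -0.03.

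**Figure D1:**
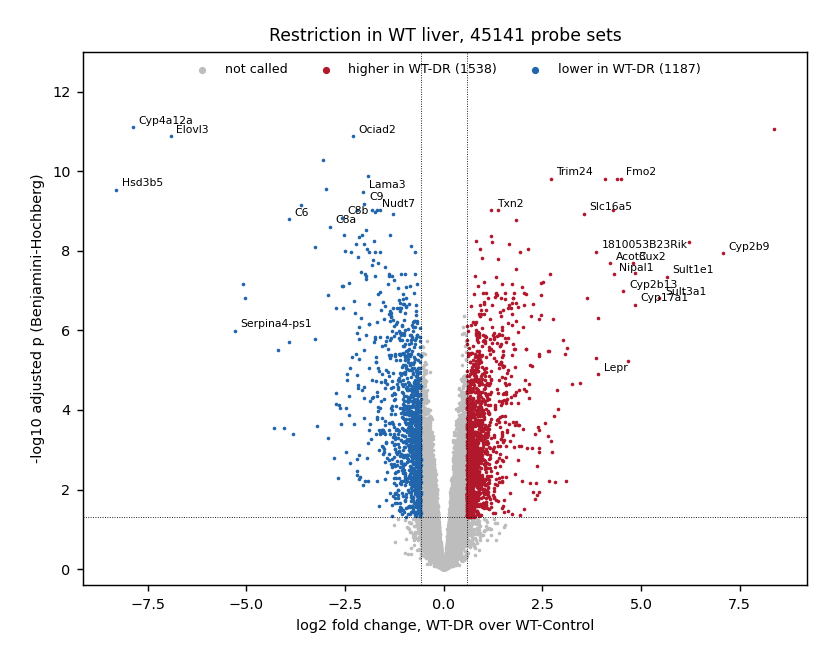
Each of the 45141 probe sets is a point, with the log2 fold change of WT-DR over WT-Control on the x axis and -log10 of the adjusted p from limma on the y axis, and dotted lines mark the thresholds. The 1538 higher probe sets are red and the 1187 lower ones blue, and the leading named genes reach changes beyond 7 on the log2 scale in both directions.

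Of the 15 largest rises, 9 were on the list of female-biased liver genes, which male mouse liver keeps low. The gene lists were chosen with earlier results of these data known, so that counts of their members describe and do not test. Cyp2b9, a female-biased cytochrome P450, measured 4.09, 7.28, 4.30, 4.80 and 4.10 in WT-Control 401 to 405 and 11.99, 11.73, 12.22, 11.98 and 12.03 in WT-DR 421 to 425. The 5 WT-DR mice were tightly grouped and far above WT-Control 402, the highest control, and the mean change was 7.08 ± 0.58, adjusted p = 1.14e-08. Sult1e1, the sulfotransferase that inactivates oestrogens, measured 4.53, 4.35, 4.53, 4.40 and 4.23 in WT-Control and 8.57, 10.99, 10.69, 9.36 and 10.71 in WT-DR. The controls were tightly grouped and the restricted mice spread over more than 2 log2 units, without overlap (5.66 ± 0.51, adjusted p = 4.51e-08). Sult3a1, another female-biased sulfotransferase, measured 3.04, 2.99, 3.33, 3.22 and 2.93 in WT-Control and 9.51, 8.80, 6.43, 8.84 and 9.28 in WT-DR. WT-DR 423 was the lowest of the restricted mice but still well above every control (5.47 ± 0.53, adjusted p = 1.55e-07).

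Cyp17a1, a steroid hydroxylase and lyase, was at 5.69, 6.46, 6.41, 5.68 and 7.29 in WT-Control and at 11.25, 10.76, 11.37, 11.16 and 11.29 in WT-DR, a separation of 4.86 ± 0.49, adjusted p = 2.30e-07. Cux2, a female-specific transcriptional repressor in mouse liver, was at 3.36, 3.31, 3.17, 3.21 and 3.33 in WT-Control and 8.62, 8.20, 8.30, 7.08 and 8.11 in WT-DR. All controls sat below the array medians, so that Cux2 went from about the floor of the array to a clear signal (4.79 ± 0.40, adjusted p = 2.03e-08). Cyp2b13 followed the same pattern, from 3.45 to 3.62 in WT-Control to 6.41 to 9.69 in WT-DR (4.56 ± 0.43, adjusted p = 1.04e-07), and so did Fmo2, a flavin-containing monooxygenase, from 3.96 to 4.64 in WT-Control to 8.33 to 9.45 in WT-DR (4.48 ± 0.27, adjusted p = 1.53e-10). Rises of the same order were seen in Acot3, a peroxisomal acyl-CoA thioesterase (5.50 to 6.77 against 9.54 to 11.02, 4.22 ± 0.36, adjusted p = 2.03e-08), and in Nipal1, a magnesium transporter (3.27 to 4.25 against 7.91 to 8.39, 4.31 ± 0.38, adjusted p = 3.90e-08).

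Lepr, the leptin receptor, measured 6.06, 6.24, 4.06, 4.76 and 5.93 in WT-Control and 8.63, 9.53, 10.21, 9.24 and 9.02 in WT-DR. The controls fell into a lower pair and 3 higher mice, and every restricted mouse lay above them (3.92 ± 0.53, adjusted p = 1.28e-05). Mt1, the zinc-binding metallothionein, rose from 8.17 to 10.12 in WT-Control to 11.70 to 13.16 in WT-DR (3.45 ± 0.49, adjusted p = 2.14e-05). The rest of the 15 largest rises were those of the transporters Slc22a27 (3.64), Slc16a5 (3.56) and Slc22a26 (3.11) and of 1810053B23Rik (3.86), with adjusted p between 1.15e-09 and 2.74e-06. A rise was also seen in 1449525_PM_at, a probe set that the annotation used here pairs with no gene. It measured 4.17, 4.02, 3.80, 3.99 and 4.24 in WT-Control and 12.15, 12.66, 12.66, 12.42 and 12.19 in WT-DR (8.37 ± 0.42, adjusted p = 8.83e-12).

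Of the 15 largest decreases, 7 were on the list of male-biased liver genes, which was likewise chosen with earlier results known. Hsd3b5, a steroid reductase of male liver, measured 12.35, 12.28, 12.33, 12.37 and 12.31 in WT-Control and 4.85, 4.25, 3.73, 3.92 and 3.37 in WT-DR. The controls were nearly equal and the restricted mice lay near the array medians, a fall of 8.30 ± 0.53, adjusted p = 2.88e-10. Cyp4a12a, a fatty acid and arachidonate hydroxylase, measured 11.37, 11.59, 11.95, 11.46 and 11.35 in WT-Control and 3.79, 3.27, 3.53, 4.17 and 3.62 in WT-DR, a fall of 7.87 ± 0.38, adjusted p = 7.87e-12. Elovl3, which elongates very long-chain fatty acids, measured 11.55, 11.29, 11.93, 11.42 and 12.18 in WT-Control and 4.93, 5.05, 4.54, 5.16 and 4.11 in WT-DR, a fall of 6.92 ± 0.36, adjusted p = 1.31e-11. Where one group lies about the array medians, as in these genes, Cux2 or 1449525_PM_at, the size of the change is uncertain and the order of such changes is not read. In all of these decreases the lowest control was more than 5 log2 units above the highest restricted mouse.

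Serpina4-ps1 was at 11.33, 9.50, 11.42, 8.96 and 8.69 in WT-Control and 5.24, 5.92, 3.42, 4.53 and 4.35 in WT-DR (-5.29 ± 0.59, adjusted p = 1.01e-06), with controls 401 and 403 well above the other 3. Of the terminal complement proteins among these 15, C6 went from 10.42 to 10.72 in WT-Control to 5.85 to 7.22 in WT-DR (-3.91 ± 0.28, adjusted p = 1.61e-09), C8a from 12.41 to 12.65 in WT-Control to 9.26 to 10.09 in WT-DR (-2.87 ± 0.21, adjusted p = 2.46e-09) and C8b from 11.19 to 11.63 in WT-Control to 8.47 to 9.07 in WT-DR (-2.57 ± 0.18, adjusted p = 1.50e-09). None of these groups overlapped. Slc22a7, an organic anion transporter, went from 10.69 to 10.90 in WT-Control to 6.93 to 8.33 in WT-DR (-3.27 ± 0.26, adjusted p = 7.78e-09), and Keg1, a glycine acyltransferase-like gene, from 11.08 to 11.75 in WT-Control to 8.05 to 9.28 in WT-DR (-2.73 ± 0.28, adjusted p = 2.68e-07). The remaining decreases in this group were those of Spsb4 (-3.27), the lectin-like receptor Clec2h (-3.22), the guanylate-binding protein Gbp10 (-2.92), Gm2788 (-2.73), Nrep (-2.73) and the acute phase protein Saa2 (-2.60), with adjusted p between 1.27e-07 and 2.51e-04.

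**Figure D2:**
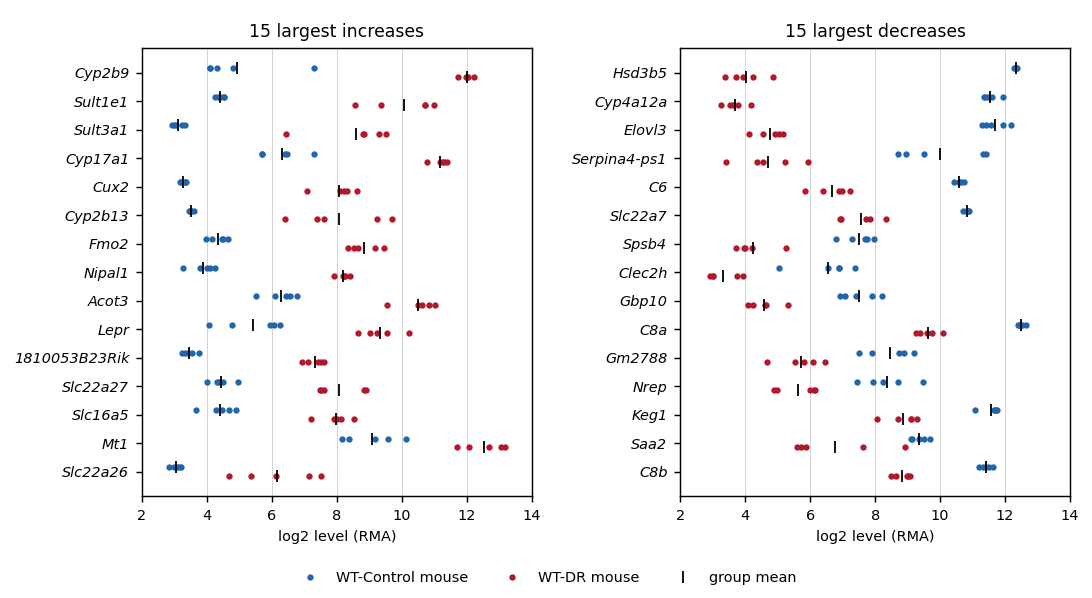
The log2 level on the x axis is given for each WT-Control mouse (blue) and each WT-DR mouse (red), with group means as black bars, for the 15 largest increases (left) and the 15 largest decreases (right) whose groups do not overlap. Hsd3b5 and Cyp4a12a controls lie above 11 with all WT-DR mice below 5, and Cyp2b9 lies between 4.09 and 7.28 in WT-Control and above 11.7 in WT-DR.

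Most of the listed sex-biased liver genes changed, the male-biased ones downward and the female-biased ones upward. Both lists were chosen with earlier results of these data known, so that their shares are descriptive only. Of 24 measured male-biased genes, 21 were lower and 0 higher in WT-DR, beside 3.52% of all genes lower, and the median change of the list was -1.82. Besides the genes above, they included Cyp7b1 (-2.10), the transporter Slco1a1 (-1.94) and the pheromone carrier Mup3 (-0.92), which was at 13.93 to 14.04 in WT-Control and 12.46 to 13.53 in WT-DR. Of 30 female-biased genes, 22 were higher and 2 lower, beside 2.85% of all genes higher, with a median of 1.82. Fmo4 (1.93), Slco1a4 (2.52) and the chromatin reader Trim24 (2.71) were among the higher ones. The 2 lower members were Adh4, an alcohol dehydrogenase, from 11.69 to 11.80 in WT-Control to 9.86 to 10.62 in WT-DR (-1.48 ± 0.13, adjusted p = 2.54e-08), and the neurotrophin receptor Ntrk2 (-0.67 ± 0.23, adjusted p = 0.0391), whose groups overlapped and whose call was lost without any 1 of 6 mice (402, 404, 405, 422, 423 and 425). Without WT-Control 403 and 405 the counts were 21 lower male-biased and 18 higher female-biased genes.

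Members of the growth hormone and IGF1 axis changed in both directions. Ghr, the growth hormone receptor, measured 12.74, 12.76, 12.73, 12.81 and 12.76 in WT-Control and 12.41, 12.19, 11.97, 12.09 and 12.21 in WT-DR, a non-overlapping fall of 0.59 ± 0.07, adjusted p = 4.38e-06 that passed the fold threshold narrowly and fell short of it without any 1 of 404, 423 or 424 (-0.58 to -0.54). Igf1, the main growth factor released under growth hormone, was at 12.47 to 12.54 and 12.17 to 12.34 and did not reach the fold threshold (-0.24 ± 0.06, adjusted p = 0.0053). Socs2, which dampens the receptor's signal, measured 8.54, 8.06, 8.80, 5.88 and 6.53 in WT-Control and 9.40, 10.60, 10.20, 9.78 and 9.50 in WT-DR. The controls spanned almost 3 log2 units, and all restricted mice lay above them (2.34 ± 0.59, adjusted p = 0.0068). Bcl6 measured 7.49, 8.54, 7.95, 9.84 and 9.56 in WT-Control and 5.41, 8.38, 4.83, 5.10 and 6.20 in WT-DR, where WT-DR 422 lay within the range of the controls (-2.69 ± 0.66, adjusted p = 0.0053). Igfals, which stabilises IGF1 in the circulation, was lower (-0.69 ± 0.17, adjusted p = 0.0053), but not called without WT-DR 422 (-0.56). In all, 4 of the 18 genes of the list were higher and 3 lower, and 2 were higher without WT-Control 404 or WT-DR 423.

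Most clock repressors were higher in WT-DR. Of 9 clock repressors 7 were higher and 0 lower, with a median of 1.07. Per3 measured 6.42, 7.13, 5.99, 7.14 and 5.33 in WT-Control and 8.94, 9.22, 8.55, 8.39 and 8.94 in WT-DR (2.40 ± 0.43, adjusted p = 3.26e-04), without overlap. Per1 measured 8.20, 8.35, 7.21, 7.99 and 6.27 in WT-Control and 9.19, 8.95, 9.00, 9.02 and 8.76 in WT-DR (1.38 ± 0.41, adjusted p = 0.0199). Ciart, a further repressor of the clock, measured 6.65, 6.11, 3.86, 7.45 and 3.69 in WT-Control and 8.61, 8.28, 7.34, 7.30 and 7.53 in WT-DR (2.26 ± 0.62, adjusted p = 0.0116). In both of the latter, controls 403 and 405 were below the other 3 controls. Cry2 went from 6.90 to 7.48 in WT-Control to 7.85 to 8.34 in WT-DR (0.90 ± 0.14, adjusted p = 5.75e-05) and Cry1 from 6.65 to 7.81 in WT-Control to 7.56 to 8.78 in WT-DR (1.07 ± 0.26, adjusted p = 0.0055).

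Among 15 clock activators and outputs, 5 were higher and 2 lower. Nfil3, a repressor of D-box genes, measured 7.28, 8.01, 8.33, 8.35 and 9.05 in WT-Control and 6.29, 5.78, 5.85, 5.51 and 5.73 in WT-DR, and the groups were about 1 log2 unit apart at their nearest (-2.37 ± 0.31, adjusted p = 8.70e-06). Clock was at 8.06 to 8.42 in WT-Control and 6.78 to 7.62 in WT-DR (-0.95 ± 0.14, adjusted p = 2.73e-05). Usp2, a deubiquitinase under clock control, measured 7.60, 7.95, 5.18, 8.46 and 4.33 in WT-Control and 10.45, 9.96, 9.71, 9.18 and 9.66 in WT-DR (3.09 ± 0.77, adjusted p = 0.006). Arntl, the partner of Clock, measured 5.09, 5.43, 7.03, 5.66 and 8.12 in WT-Control and 4.18, 4.78, 7.08, 5.82 and 5.38 in WT-DR, with overlapping groups and no call (-0.82 ± 0.64, adjusted p = 0.426). Dbp was not called either (1.02 ± 0.44, adjusted p = 0.113).

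Several of these calls rested on WT-Control 403 and 405. Without both mice, 3 clock repressors and 1 activator or output were higher, and 3 activators or outputs were lower. Without 405 alone 4 repressors were higher, Per1 was not called (1.05, adjusted p = 0.0696), and 2 activators or outputs were higher, as without 403 alone, beside 3 without WT-DR 421 or 423. With both left out, Per3 (1.91, adjusted p = 0.0076), Cry2 (0.86, adjusted p = 0.0011) and Nfil3 (-2.05, adjusted p = 2.86e-04) stayed called, whereas Per1 (0.80, adjusted p = 0.217), Ciart (1.07, adjusted p = 0.202) and Usp2 (1.79, adjusted p = 0.108) did not, and the value of Arntl changed sign (0.05, adjusted p = 0.973). The hour at which each mouse was killed is not given in the sources used here, and its part in these differences was not tested.

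Arntl and Clock bind the E-box CACGTG. The stretches below, from RefSeq on the assembly GRCm38.p6, are those of 2 genes with low values in controls 403 and 405 whose promoters held it, with the E-box in capitals. Controls 403 and 405 were also lowest for Per3, Dbp and Usp2, whose promoters held no E-box, and none was found at a second start of Per1.
Per1, chr11:69098747-69098826, plus strand, E-box at position -166 from the start: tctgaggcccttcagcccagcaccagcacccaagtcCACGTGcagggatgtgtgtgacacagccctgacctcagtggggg
Ciart, chr3:95882301-95882380, minus strand, E-boxes at -116, -58 and -44, the first of them shown: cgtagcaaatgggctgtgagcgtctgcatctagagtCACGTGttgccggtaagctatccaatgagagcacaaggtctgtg
In the 300 bases around the start (250 before and 50 after), 3 of the 6 higher clock repressors with a promoter sequence held an E-box (Per1, Ciart and Cry1). The E-box was found in 56 of 378 higher genes (14.8%), in 43 of 487 lower genes (8.83%) and in 10.2% of all 13605 genes with a promoter sequence. The element reads the same on both strands, and a match describes these letters only.

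**Figure D3:**
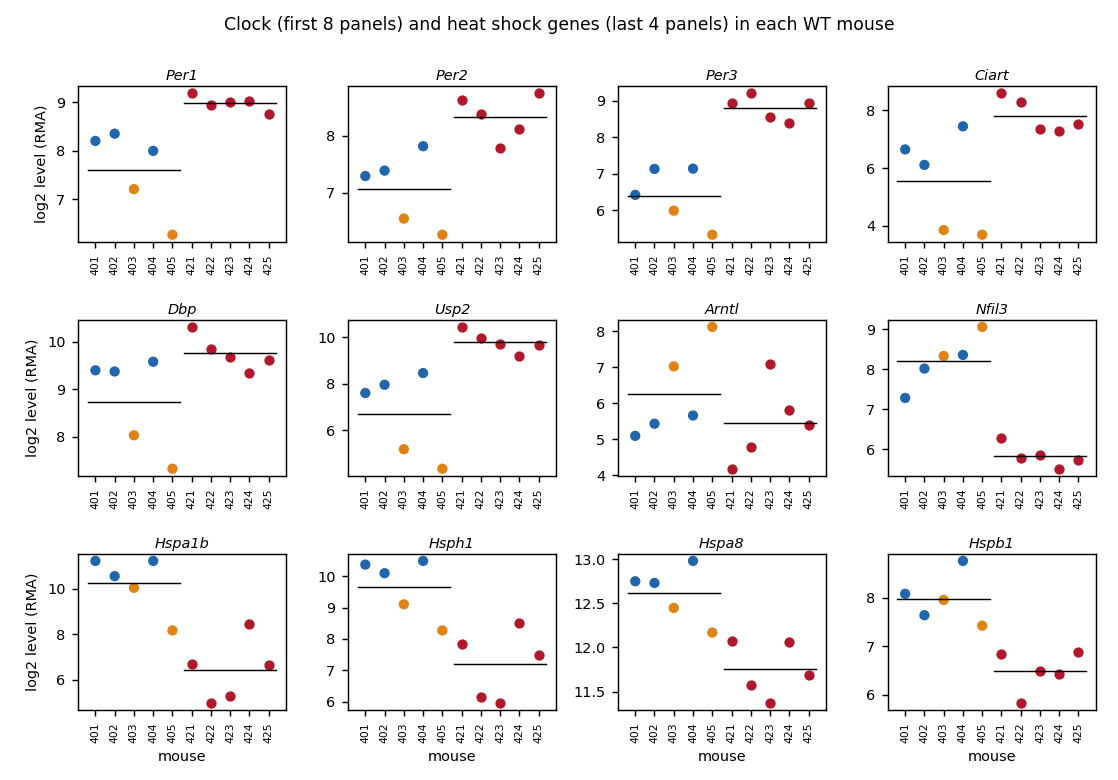
The log2 level on each y axis is shown for the 10 WT mice, with WT-Control in blue (403 and 405 in orange), WT-DR in red and group means as lines. In the clock panels 403 and 405 lie lowest of all mice for Per1, Per2, Per3, Ciart, Dbp and Usp2 and highest of the controls for Arntl, and in the heat shock panels control 405 lies lowest of the controls.

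Heat shock proteins, the chaperones that refold damaged proteins in the cytosol, were mostly lower in WT-DR. Of 16 measured genes 9 were lower and 0 higher, with a median change of -0.74. Hspa1b, the stress-inducible HSP70, measured 11.22, 10.54, 10.03, 11.21 and 8.16 in WT-Control and 6.66, 4.98, 5.28, 8.46 and 6.65 in WT-DR. Control 405 and WT-DR 424 overlapped in a narrow range, and the other mice were well separated (-3.83 ± 0.70, adjusted p = 3.94e-04). Hsph1, an HSP70 exchange factor, measured 10.37, 10.10, 9.10, 10.49 and 8.27 in WT-Control and 7.85, 6.14, 5.97, 8.50 and 7.48 in WT-DR, again with overlap of the same 2 mice (-2.48 ± 0.51, adjusted p = 0.0011). The small chaperone Hspb1 went from 7.42 to 8.76 in WT-Control to 5.84 to 6.88 in WT-DR (-1.48 ± 0.26, adjusted p = 2.37e-04), Hsp90aa1 from 9.21 to 10.57 in WT-Control to 8.46 to 8.87 in WT-DR (-1.36 ± 0.25, adjusted p = 4.11e-04), and the constitutive Hspa8 from 12.17 to 12.98 in WT-Control to 11.37 to 12.08 in WT-DR (-0.86 ± 0.15, adjusted p = 3.02e-04), all without overlap. The count was 11 lower genes without WT-Control 403 and 405, 8 to 11 in the fits without 1 mouse and 7 in the values per gene. In Ercc1Δ/- mice 2 of the 16 genes were lower, beside 1.22% of all genes there, and the median change was -0.38. The interaction of restriction and genotype was called in 0 of the 16, so that the counts of the genotypes are not read as different responses. Hspa1b and Hspa1a are near-identical copies, and probe sets may not tell them apart.

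Heat shock factor binds inverted GAA repeats. The pattern GAANNTTC, added after the other motifs were chosen and the same on both strands, occurred in the promoter of 4 of the 7 lower heat shock genes with a sequence (Hspa1b, Hsph1, Hspb1 and Chordc1), beside 7.7% of all genes. The stretch of Hspa1b is shown, with the match in capitals, since this gene fell most of the list.
Hspa1b, chr17:34959299-34959378, minus strand, match at position -104 from the start: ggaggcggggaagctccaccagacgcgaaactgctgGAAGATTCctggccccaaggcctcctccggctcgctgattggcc

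Other stress responses were read from separate lists. In the unfolded protein response of the endoplasmic reticulum 5 of 25 genes were lower and 0 higher, a count of 2 without any 1 of 401, 402, 404 or 421 and of 3 without 422 or 425. Creld2, a chaperone of the reticulum, went from 8.96 to 11.50 in WT-Control to 8.21 to 9.16 in WT-DR (-1.68 ± 0.42, adjusted p = 0.0061), and Ern1, the sensor IRE1, from 9.48 to 10.03 in WT-Control to 8.38 to 9.44 in WT-DR (-0.80 ± 0.17, adjusted p = 0.0015). Another probe set of Ern1 was called higher (0.75). Of 23 genes of the integrated stress response 3 were lower and 1 higher, with 1 lower without 401 and 2 higher without 424. Ddit3, a transcription factor of that response, was lower (-1.08 ± 0.35, adjusted p = 0.0297) with overlapping groups and lost its call without 401, 402, 404 or 423, and Fgf21, a hormone released by the fasted liver, measured 6.16, 5.10, 5.48, 6.36 and 6.26 in WT-Control and 4.14, 4.24, 4.66, 4.49 and 4.43 in WT-DR, where all restricted mice lay below the controls (-1.48 ± 0.36, adjusted p = 0.0053).

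Some genes of lipid synthesis were higher. Of 23 genes of fatty acid and triglyceride synthesis 5 were higher and 0 lower, with a median of 0.54. Pnpla3, a lipase of lipid droplets under control of feeding, measured 4.92, 4.80, 4.84, 5.42 and 7.41 in WT-Control and 8.71, 6.93, 7.16, 8.26 and 9.63 in WT-DR, and control 405 lay above the lowest restricted mouse (2.66 ± 0.66, adjusted p = 0.006). Pnpla5 went from 3.63 to 5.18 in WT-Control to 5.17 to 6.23 in WT-DR (1.59 ± 0.28, adjusted p = 3.15e-04), and Acaca, the carboxylase that makes malonyl-CoA, from 8.23 to 9.02 in WT-Control to 9.11 to 10.07 in WT-DR (1.11 ± 0.29, adjusted p = 0.0089). Fasn, the fatty acid synthase, was not called (1.14 ± 0.47, adjusted p = 0.095). In cholesterol synthesis 2 of 23 genes were higher and 1 lower. Lss, which closes the sterol ring, measured 6.37, 5.73, 6.82, 6.10 and 7.35 in WT-Control and 8.10, 8.59, 8.31, 8.10 and 8.21 in WT-DR, without overlap (1.79 ± 0.36, adjusted p = 8.64e-04). The mean level of the cholesterol list was 9.12 and 9.41 in controls 403 and 405 and 8.25 to 8.59 in the other 3, and without 403 and 405 the counts of higher genes were 8 of 23 for cholesterol and 7 of 23 for fatty acid synthesis. Without 405 alone they were 4 and 9, and the cholesterol count was 1 without any 1 of 401, 402, 404 or 422.

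Genes of lipid droplets were lower where they were called, and the calls among those of fat oxidation went both ways. Plin2, which coats lipid droplets, measured 12.60, 12.70, 12.93, 12.30 and 12.72 in WT-Control and 11.55, 11.23, 11.08, 11.41 and 11.14 in WT-DR, clearly apart (-1.37 ± 0.17, adjusted p = 4.88e-06). It was 1 of 3 lower genes of 14 on droplets and lipolysis, with G0s2, an inhibitor of lipolysis (-1.64 ± 0.51, adjusted p = 0.0263), and Mgll, the monoglyceride lipase (-0.62 ± 0.13, adjusted p = 0.001), a count of 1 without 403. The call of G0s2 was also lost without any 1 of 404, 405, 423 or 424, and that of Mgll without 422. Of 32 fat oxidation genes and PPARalpha targets 3 were lower and 2 higher, and the lower count was 3 to 8 under the alternatives that kept the thresholds. Without the fold threshold 9 were lower and 2 higher at an FDR under 0.05. A negative change was seen in 23 of the 32, with a median of -0.19. Creb3l3, a liver transcription factor of fasting, measured 10.67, 10.85, 10.73, 10.68 and 10.45 in WT-Control and 9.86, 9.53, 9.41, 9.49 and 9.47 in WT-DR (-1.12 ± 0.11, adjusted p = 2.06e-07). Cpt2, the inner carnitine palmitoyltransferase, was lower (-0.68 ± 0.10, adjusted p = 6.25e-05), whereas the fatty acid hydroxylase Cyp4a10 (1.88 ± 0.41, adjusted p = 0.0018) and the fatty acid carrier Cd36 (0.95 ± 0.20, adjusted p = 0.0018) were higher. Among 21 apolipoproteins and handling genes, Apoa4 rose from 10.43 to 11.69 in WT-Control to 12.20 to 12.86 in WT-DR (1.66 ± 0.23, adjusted p = 2.24e-05), Vldlr rose (1.84 ± 0.27, adjusted p = 3.56e-05) and the sorting receptor Sort1 fell from 6.83 to 7.81 in WT-Control to 5.74 to 6.28 in WT-DR (-1.46 ± 0.19, adjusted p = 9.68e-06).

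Glucose genes changed at single steps. G6pc, the phosphatase that releases glucose, measured 12.29, 12.73, 12.55, 11.66 and 12.83 in WT-Control and 10.26, 10.41, 10.84, 12.24 and 10.58 in WT-DR, with overlap (-1.55 ± 0.31, adjusted p = 8.56e-04). It was the only lower gene of 17 in gluconeogenesis. A single gene was higher, a count that ran up to 3 without 402 or 404: Pck1 lay at 2.89 to 3.26 and 3.26 to 4.20, about the floor of the array, and the values per gene gave -0.05 for it, so that its level cannot be read here. Of 14 glycolysis and uptake genes 3 were higher: Pklr, the liver pyruvate kinase (9.20 to 9.81 in WT-Control to 10.14 to 10.81 in WT-DR, 1.06 ± 0.25, adjusted p = 0.0036), Pdk1, a kinase that closes pyruvate dehydrogenase (9.17 to 9.58 in WT-Control to 10.71 to 10.93 in WT-DR, 1.48 ± 0.19, adjusted p = 4.79e-06), and Pgd of the pentose phosphate pathway (9.01 to 9.80 in WT-Control to 10.54 to 11.42 in WT-DR, 1.60 ± 0.24, adjusted p = 5.31e-05). All of these groups were apart. Ppp1r3c, a glycogen-targeting subunit of protein phosphatase, was lower (-1.65 ± 0.30, adjusted p = 3.12e-04), as the only gene of 15 in glycogen metabolism. Of 37 amino acid genes 2 were higher and 1 was lower, beside 2.85% and 3.52% of all genes. The higher ones were the urea cycle lyase Asl (0.89 ± 0.11, adjusted p = 4.76e-06) and Prodh, which breaks down proline (1.06 ± 0.14, adjusted p = 1.13e-05). Mat1a, which makes S-adenosylmethionine in liver, was at 12.52 to 12.83 in WT-Control and 13.24 to 13.29 in WT-DR, narrowly past the fold threshold (0.60 ± 0.07, adjusted p = 7.74e-07) and under it without any 1 of 401, 403 or 404.

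Bile acid genes changed in both directions, 6 higher and 6 lower of 26. Cyp7a1, the rate-limiting enzyme of bile acid synthesis, measured 10.43, 7.87, 8.51, 7.56 and 7.72 in WT-Control and 10.21, 10.89, 11.25, 11.30 and 11.29 in WT-DR. One control, 401, lay within the range of the restricted mice (2.57 ± 0.44, adjusted p = 2.15e-04). Cyp7b1, of the alternative pathway, measured 12.48, 12.08, 12.48, 12.46 and 12.05 in WT-Control and 10.08, 10.66, 10.28, 10.02 and 10.02 in WT-DR (-2.10 ± 0.22, adjusted p = 4.80e-07). Cyp39a1, an oxysterol hydroxylase, went the other way, from 7.06 to 8.03 in WT-Control to 9.77 to 10.44 in WT-DR (2.46 ± 0.26, adjusted p = 4.02e-07), with Akr1d1, the steroid reductase of bile acid synthesis, from 10.34 to 10.65 in WT-Control to 11.27 to 11.47 in WT-DR (0.91 ± 0.07, adjusted p = 9.20e-09). Of the transporters, the exporter Abcc4 was higher (1.03 ± 0.12, adjusted p = 1.78e-06) and the uptake carrier Slco1a1 lower, from 12.62 to 12.71 in WT-Control to 10.44 to 11.11 in WT-DR (-1.94 ± 0.15, adjusted p = 8.84e-09).

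Of 31 phase I enzymes of foreign compounds 10 were higher and 6 lower. The higher ones included Cyp2b9 and Cyp2b13 with Fmo1 (0.83 ± 0.06, adjusted p = 5.73e-09), and the lower ones Aox3, an aldehyde oxidase, from 12.08 to 12.45 in WT-Control to 9.93 to 10.47 in WT-DR (-2.18 ± 0.18, adjusted p = 1.40e-08). Phase II enzymes and transporters were split 8 and 8 of 31. Gstt3, a glutathione transferase, rose from 8.30 to 8.76 in WT-Control to 10.46 to 11.08 in WT-DR (2.22 ± 0.23, adjusted p = 4.42e-07), whereas Nat8, which makes mercapturic acids, fell from 7.62 to 8.47 in WT-Control to 5.42 to 6.12 in WT-DR (-2.09 ± 0.18, adjusted p = 3.36e-08) and the efflux pump Abcg2 from 10.34 to 10.62 in WT-Control to 8.97 to 9.23 in WT-DR (-1.29 ± 0.09, adjusted p = 1.15e-09). Of 27 NRF2 targets and antioxidant genes 4 were higher and 1 lower. Nqo1, a quinone reductase, measured 5.58, 5.91, 5.64, 5.57 and 5.53 in WT-Control and 7.28, 7.36, 7.10, 7.25 and 7.06 in WT-DR (1.57 ± 0.15, adjusted p = 1.13e-07), while Gclc, which starts glutathione synthesis, was lower (-0.96 ± 0.14, adjusted p = 4.38e-05).

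Of 34 complement and coagulation genes 6 were lower and 0 higher: C6, C8a, C8b, C9, Mbl1 and F11. The lower count was 6 to 12 under the alternatives that kept the thresholds. C9, the pore-forming complement protein, measured 13.36, 13.39, 13.34, 13.36 and 13.18 in WT-Control and 11.55, 11.44, 11.27, 11.18 and 11.12 in WT-DR, with WT-Control 405 below the other 4 controls and no overlap (-2.01 ± 0.13, adjusted p = 6.44e-10). Acute phase proteins were split 5 and 5 of 23. Saa4, a constitutive serum amyloid A, measured 11.91, 12.14, 11.74, 12.03 and 11.46 in WT-Control and 10.75, 10.13, 9.63, 9.83 and 10.23 in WT-DR, with every restricted mouse below the controls (-1.74 ± 0.20, adjusted p = 1.60e-06), and the inducible Saa1 was lower as well (-2.47). Lcn2, an iron-sequestering acute phase protein, rose from 4.75 to 5.75 in WT-Control to 6.91 to 8.07 in WT-DR (2.05 ± 0.28, adjusted p = 1.76e-05), as did Apcs, serum amyloid P (1.19 ± 0.14, adjusted p = 2.93e-06), and Hamp2, a relative of the iron hormone hepcidin (10.27 to 11.29 in WT-Control to 12.18 to 13.28 in WT-DR, 1.80 ± 0.31, adjusted p = 2.43e-04).

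Some interferon and antigen presentation genes were lower in WT-DR. Of 25 interferon-stimulated genes 7 were lower and 0 higher, with a median of -0.39. Rsad2, the antiviral protein viperin, measured 6.67, 6.82, 7.85, 7.09 and 7.01 in WT-Control and 5.83, 5.31, 5.11, 5.87 and 5.89 in WT-DR, without overlap (-1.49 ± 0.21, adjusted p = 1.77e-05), and Ifit1 (-1.12 ± 0.29, adjusted p = 0.0069) and Ifi27l2a (-1.17 ± 0.21, adjusted p = 3.21e-04) were lower too. Of 15 genes of antigen presentation 6 were lower and 1 higher. H2-Eb1, a class II chain, measured 8.22, 7.85, 7.82, 7.88 and 7.36 in WT-Control and 6.75, 5.90, 5.39, 5.88 and 5.89 in WT-DR, without overlap (-1.86 ± 0.29, adjusted p = 5.87e-05), with H2-Aa (-1.50 ± 0.27, adjusted p = 3.54e-04), H2-Ab1 (-1.47 ± 0.28, adjusted p = 6.53e-04) and the immunoproteasome subunit Psmb9 (-0.79 ± 0.14, adjusted p = 3.56e-04). The higher gene was Nlrc5, an activator of class I genes (0.96 ± 0.17, adjusted p = 2.14e-04).

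Of 12 macrophage and Kupffer cell markers 2 were lower and 0 higher, Adgre1 from 7.39 to 7.75 in WT-Control to 6.39 to 6.85 in WT-DR (-0.93 ± 0.15, adjusted p = 1.23e-04) and Clec4f from 8.95 to 9.21 in WT-Control to 8.14 to 8.57 in WT-DR (-0.71 ± 0.13, adjusted p = 5.29e-04). The mean level of the 12 markers was 7.78 to 8.23 in WT-Control and 7.36 to 7.93 in WT-DR, with a median change of -0.42. The 10 lymphocyte markers lay at a mean level of 4.20 to 4.33 in WT-Control and 4.05 to 4.13 in WT-DR, and none was called. Fewer such cells and less RNA per cell cannot be told apart in whole liver, and the part of these markers in the lower immune genes was not tested. Of 11 markers of sinusoidal endothelium 1 was lower (Clec4g, -0.70 ± 0.12, adjusted p = 1.76e-04), of 11 of stellate cells 1 was lower, and of cholangiocytes, neutrophils and skeletal muscle none was called. Cela1, an elastase on the list of the exocrine pancreas, fell (-2.00 ± 0.18, adjusted p = 3.90e-08) while the other 7 genes of that list were not called. Of 5 measured genes on the adipocyte list 2 were higher and 0 lower, 2 had a negative change, and 4 lay at or below the median of all values. The called ones were Pck1, whose level cannot be read here, and Fabp4. Fabp4 rose from 8.03 to 8.36 in WT-Control to 8.59 to 8.93 in WT-DR (0.63 ± 0.10, adjusted p = 1.17e-04).

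Hormone genes and responses were changed in several lists. Of 24 glucocorticoid-responsive genes 9 were higher and 0 lower, with a median of 0.285. A positive change was seen in 19 and a negative one in 5, down to -0.66. Fkbp5, a co-chaperone of the glucocorticoid receptor, measured 8.63, 8.58, 7.48, 8.84 and 6.65 in WT-Control and 10.17, 9.92, 10.08, 10.14 and 9.29 in WT-DR, without overlap (1.89 ± 0.33, adjusted p = 2.35e-04). Several of the 9 (Sult1e1, Cyp17a1 and Per1) stand on other lists as well, and without WT-Control 403 and 405 the counts were 6 higher and 1 lower. Dio1, which activates thyroid hormone, measured 10.95, 11.20, 11.08, 10.84 and 10.82 in WT-Control and 10.43, 9.46, 8.44, 8.91 and 9.78 in WT-DR (-1.57 ± 0.26, adjusted p = 1.56e-04). Crym, a thyroid hormone-binding protein, rose from 3.85 to 4.32 in WT-Control to 5.11 to 5.63 in WT-DR (1.23 ± 0.12, adjusted p = 2.31e-07). Of 20 hepatokines and receptors 4 were higher and 3 lower, with 2 higher without 403 or 404 and 1 without 423. Inhbe, the activin E chain, measured 7.87, 7.95, 8.29, 8.41 and 8.00 in WT-Control and 6.64, 6.11, 4.82, 5.02 and 5.66 in WT-DR, apart by more than 1 log2 unit (-2.45 ± 0.33, adjusted p = 1.23e-05), and Enho, the adropin gene, went from 8.53 to 9.21 in WT-Control to 6.91 to 7.79 in WT-DR (-1.48 ± 0.21, adjusted p = 2.85e-05).

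The genes of nutrient signalling that the series addresses by drug and mutation did not reach the thresholds. Mtor was at 7.93 to 8.49 in WT-Control and 7.86 to 8.21 in WT-DR (-0.23 ± 0.11, adjusted p = 0.16), and Rheb, the GTPase that activates it, was at 10.45 to 10.71 and 10.31 to 10.59 (-0.11 ± 0.07, adjusted p = 0.304). Tsc1, which holds Rheb back, was at 6.95 to 7.32 and 7.42 to 7.72, without overlap but under the fold threshold (0.39 ± 0.09, adjusted p = 0.0022). Over 29 genes of insulin, AMPK and mTOR signalling 2 were higher (0 without 401) and 2 lower, and over 24 genes of autophagy and lysosomes 1 was lower.

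Some damage and growth genes were called in these repair-proficient livers, beside 2.85% of all genes higher and 3.52% lower. Cdkn1a, the inhibitor of the cell cycle induced by p53, measured 5.72, 5.54, 5.76, 5.81 and 5.72 in WT-Control and 5.24, 4.77, 6.13, 5.63 and 4.63 in WT-DR, with overlap and no call (-0.43 ± 0.30, adjusted p = 0.349). Of 26 p53 targets 2 were higher and 0 lower, with 1 higher without 401 or 423. Of 24 genes of nucleotide excision and crosslink repair 3 were higher, a count of 1 in the values per gene. Among the 3, Brca1 went from 3.86 to 4.37 in WT-Control to 5.53 to 6.12 in WT-DR (1.62 ± 0.17, adjusted p = 6.55e-07), a low level at which the values per gene gave no call. The probe set of Ercc8 with the highest mean showed -0.02, but another was called lower (-1.13, adjusted p = 4.00e-06). A second probe set of Rad23b was called higher (0.65, adjusted p = 0.0173). Of 32 cell cycle genes 2 were higher and 3 lower (1 without 403), among them the cyclin Ccnd1, lower with overlap (-1.26 ± 0.31, adjusted p = 0.0053), and the inhibitor Cdkn2c, higher (1.17 ± 0.17, adjusted p = 3.97e-05). None of 31 cytosolic ribosomal protein genes reached the fold threshold, although all 31 had a positive change, 18 of them with an FDR under 0.05, and a median of 0.21. None of 33 genes of oxidative phosphorylation was called, with a median of 0.15, and 12 had a positive change with an FDR under 0.05. Dimmer probe sets of 3 of these 33 genes were called higher, those of Atp5c1 (1.14), Sdha (0.97) and Ndufs4 (0.61).

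**Figure D4:**
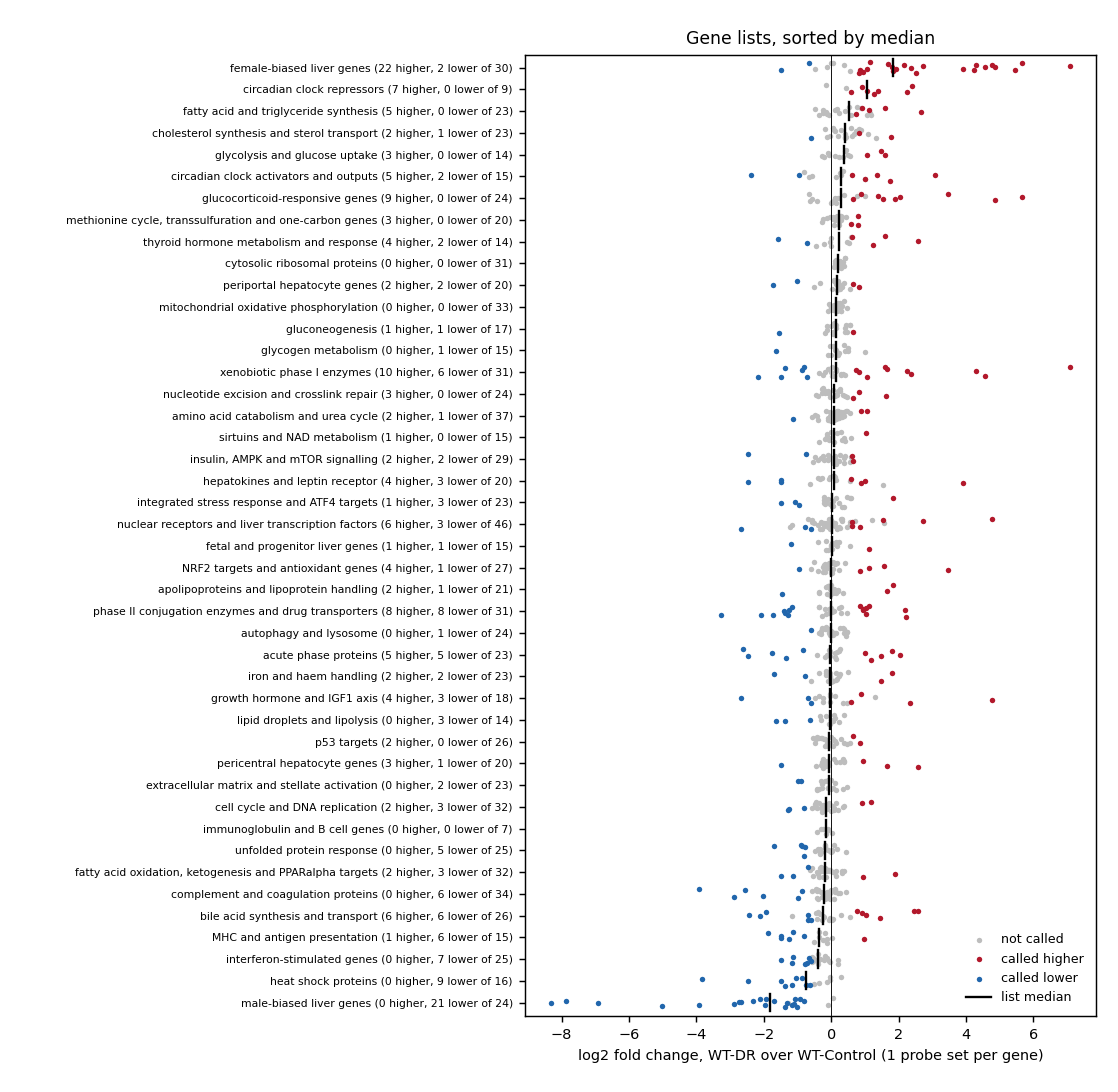
Each row is 1 of 44 gene lists, sorted by its median, and each point is the log2 fold change of WT-DR over WT-Control of 1 gene on the x axis, red when called higher and blue when called lower. The female-biased list has the highest median (1.82) and the male-biased list the lowest (-1.82), and ribosomal and oxidative phosphorylation genes lie in a narrow band next to 0 with no call.

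The best separated genes were not always those with the largest change. Ociad2 measured 9.37, 9.33, 9.39, 9.41 and 9.54 in WT-Control and 7.26, 7.03, 7.10, 7.26 and 6.89 in WT-DR, with narrow groups far apart (-2.30 ± 0.12, adjusted p = 1.31e-11). Trim24 measured 6.79, 6.70, 6.66, 7.17 and 6.84 in WT-Control and 9.43, 9.73, 9.71, 9.29 and 9.59 in WT-DR (2.71 ± 0.16, adjusted p = 1.53e-10). Lama3, a laminin chain, went from 5.40 to 5.61 in WT-Control to 3.16 to 3.74 in WT-DR (-2.04 ± 0.13, adjusted p = 3.28e-10), and Nudt7, a peroxisomal CoA hydrolase, from 12.85 to 13.14 in WT-Control to 10.92 to 11.56 in WT-DR (-1.69 ± 0.12, adjusted p = 9.50e-10). Txn2, the mitochondrial thioredoxin, rose from 8.58 to 8.87 in WT-Control to 9.84 to 10.08 in WT-DR (1.21 ± 0.08, adjusted p = 9.50e-10), but its probe set with the highest mean showed 0.26. Such differences between probe sets of 1 gene were common: of 860 called genes with several probe sets, 709 had at least 1 that was not called, and 4 genes (Coa6, Ern1, Pole4 and Tbc1d5) had probe sets called in both directions.

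Restriction was also given to Ercc1Δ/- mice, which allows the response to be compared between genotypes on separate mice. In these, 1.85% of the 17097 genes were higher and 1.22% lower, and 673 probe sets were higher and 428 lower. Of the 1538 probe sets higher in WT-DR, 396 (25.7%) were called higher in DR 30% as well, which is 58.8% of the Ercc1Δ/- list, and 2 were called in the opposite direction. Of the 1187 lower ones, 295 (24.9%, or 68.9% of the Ercc1Δ/- list) were lower in both, and 2 were opposite. The sign was the same in 89.5% of the higher and 91.9% of the lower probe sets. The median change of the higher WT probe sets was 0.80 in WT and 0.38 in Ercc1Δ/- mice, and of the lower ones -0.82 and -0.40. The 2 medians are not an even comparison, because the probe sets were chosen on the WT mice.

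The interaction of restriction and genotype tests the difference of the 2 responses itself. It was called in 362 probe sets (0.802%) and, with 1 probe set per gene, in 0.965% of genes. Of the 362, the change in WT minus that in Ercc1Δ/- mice was positive in 138 and negative in 224. Among them, 153 changed with the same sign but more in WT, 14 more in Ercc1Δ/- mice, and 195 with opposite signs. The count depended on single mice: it was 157 to 240 without any 1 of Control 321, DR 30% 366, 368 or 369, WT-Control 401 or 403, or WT-DR 423, 424 or 425, it was 570 without DR 30% 362 and 752 without WT-DR 421, and 129 of the 362 were called in each of the 20 fits that left out 1 mouse. Genes with several probe sets are given below by the one with the largest interaction.

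Some sex-biased genes responded more in WT mice. Cyp4a12a fell by 7.87 in WT and changed by -4.15 in Ercc1Δ/- mice (difference -3.72 ± 0.53, adjusted p = 0.0014). Hsd3b5 showed -8.30 and -4.78 (difference -3.52 ± 0.75, adjusted p = 0.0234), and Elovl3 showed -6.92 and -4.79 (difference -2.13 ± 0.51, adjusted p = 0.0413), although the call of the last was lost in 13 and that of Hsd3b5 in 1 of the 20 fits without 1 mouse. Among rising genes, Sult1e1 showed 5.66 and 1.76 (difference 3.90 ± 0.71, adjusted p = 0.0107), from a baseline of 4.23 to 4.53 in WT-Control but 7.72 ± 1.01 (SD) in the 5 mice of Control, so that the starting levels differed. Cyp2b13 rose by 4.56 in WT, against 0.69 in the mutant (difference 3.86 ± 0.61, adjusted p = 0.0038), and Cyp17a1 by 4.86, against 1.69 (difference 3.17 ± 0.69, adjusted p = 0.0266). Of the 24 male-biased genes 17 were lower in Ercc1Δ/- mice and 6 had an interaction, and of the 30 female-biased genes 18 were higher there, beside the shares of all genes given above.

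Genes outside the sex-biased lists differed as well. Elovl6, a fatty acid elongase, had a probe set with 2.40 in WT and -0.79 in the mutant (difference 3.19 ± 0.60, adjusted p = 0.0123), while its brightest probe set was not called in WT (1.08 ± 0.40, adjusted p = 0.0584). Tfrc, the transferrin receptor, rose in WT by 1.48 and changed by -0.28 in the mutant (difference 1.76 ± 0.38, adjusted p = 0.0262). Spc25, of the kinetochore, measured 6.99 to 7.64 in WT-Control and 4.95 to 6.02 in WT-DR, with -1.90 in WT and 0.51 in the mutant (difference -2.40 ± 0.27, adjusted p = 4.78e-05). Fitm1, which takes part in lipid droplet formation, showed -2.23 and -0.34 (difference -1.89 ± 0.25, adjusted p = 5.69e-04), Plin2 -1.37 and -0.22 (difference -1.15 ± 0.24, adjusted p = 0.0225), and Creb3l3 -1.12 and -0.02 (difference -1.10 ± 0.16, adjusted p = 0.0013). Ociad2 showed -2.30 and -0.55 (difference -1.75 ± 0.17, adjusted p = 1.84e-05), and Pgd 1.60 and 0.16 (difference 1.44 ± 0.34, adjusted p = 0.0415).

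Some interactions went with a change called in the mutant and none called in WT. Mfsd2a, a lipid transporter induced by fasting, was at 9.44 to 10.39 in WT-Control and 9.29 to 11.12 in WT-DR (0.19 ± 0.41, adjusted p = 0.806), whereas it rose by 2.79 in Ercc1Δ/- mice (difference -2.60 ± 0.58, adjusted p = 0.031). Its mean was 9.88 in WT-Control but 6.75 in Control, so that the starting levels differed. The restricted means were 10.07 in WT-DR and 9.54 in DR 30%. Acot1, a cytosolic acyl-CoA thioesterase, showed -0.35 in WT and 1.41 in the mutant (difference -1.76 ± 0.43, adjusted p = 0.046), and Gpx6 showed -0.47 and 1.61 (difference -2.09 ± 0.29, adjusted p = 0.0012). Mean levels of Acot1 were 7.85 in WT-Control and 6.04 in Control, against 7.50 in WT-DR and 7.45 in DR 30%. Those of Gpx6 were 4.85 and 6.14, against 4.38 and 7.76. Among the 20 fits without 1 mouse the interaction call was lost in 16 for Acot1, 14 for Smoc2 and Pgd, 9 for Mfsd2a, 6 for Tfrc, 4 for Cyp17a1 and 1 for Plin2, and in none for Elovl6, Spc25, Fitm1, Creb3l3, Ociad2 or Gpx6. Without WT-DR 421 the change of Mfsd2a in WT was -0.07. Of the 32 fat oxidation genes and PPARalpha targets, 6 were higher and 0 lower in the mutant, against 2 and 3 in WT, and 6 had an interaction. The other large differences are also the change in WT minus that in the mutant. They were positive for Slc22a26 (2.43), 1810053B23Rik (2.22), Slc16a5 (1.95), Dnaic1 (1.84) and Smoc2 (1.81) and negative for C6 (-1.98) and Pnldc1 (-1.79). This probe set of Dnaic1 changed by -0.62 in WT, without a call, and by -2.45 in the mutant. Pnldc1 was called in both genotypes, at -0.70 in WT and 1.09 in the mutant. Starting levels differed more for 1810053B23Rik (3.45 in WT-Control and 5.01 in Control), Slc16a5 (4.40 and 6.75), Dnaic1 (4.28 and 6.62) and Smoc2 (5.09 and 6.42). They were closer for Slc22a26 (3.69 and 3.67), C6 (10.59 and 11.04) and Pnldc1 (6.14 and 5.82).

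**Figure D5:**
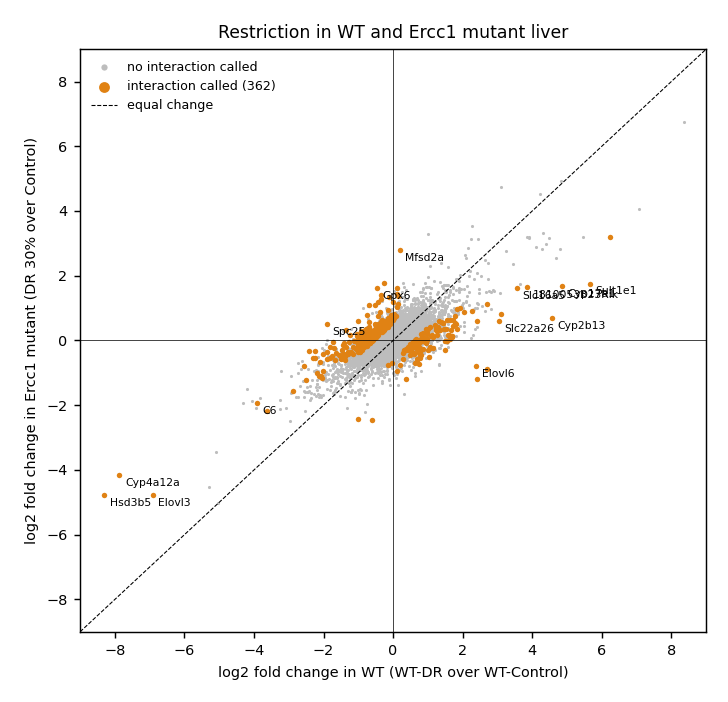
Each probe set is placed by its log2 fold change under restriction in WT (x axis) and in Ercc1Δ/- mice (y axis), with the 362 called interactions in orange and equal change as the dashed line. Cyp4a12a and Hsd3b5 lie above the dashed line with a deeper fall in WT, and Mfsd2a lies beside the vertical axis with a call in the mutant only.

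The series also asks whether expression depends on gene length, since lesions that block transcription hit long genes more often. The higher genes had a median length of 28.93 kb (486 genes) and the lower ones of 22.07 kb (599 genes), beside 20.23 kb over 16937 genes with a length. In each mouse the change against the mean of WT-Control was fitted on log10 gene length over 10314 expressed genes. The slopes of WT-DR and WT-Control differed by 0.0362 log2 units per 10-fold length, which is within the spread of the mice (exact two-sided permutation p = 0.2063 with 5 against 5 mice, where 0.00794 is the smallest possible).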

How the data were processed

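RNA of 24 mouse livers, QIAzol-extracted and of high integrity, was hybridised to Affymetrix HT MG-430 PM arrays. The authors checked and normalised the arrays with arrayanalysis.org and deposited log2 values of RMA (software versions are not given in the sources used here) as 45141 probe sets per mouse and as 17306 values per gene, which served as an alternative. Probe sets were paired with genes through the platform annotation and RefSeq (GRCm38.p6). For each probe set, the means of 5 groups were fitted over 24 arrays with limma (3.58.1, R 4.3.3), with Benjamini-Hochberg adjustment. Errors of log2 changes are standard errors. Calls used the thresholds of the study (adjusted p 0.05, fold 1.5), and the fit was tested on simulated data. Replicates are separate animals, and their number limits the precision. Named genes are the 15 largest changes in each direction without overlap, the 10 smallest adjusted p, the 10 largest interactions in each direction, up to 6 members of each list with the smallest adjusted p, further members given as examples with their values, genes whose probe sets disagree or whose call is lost, and Ercc1, Cdkn1a, Mtor, Rheb and Tsc1. The members and lists were chosen with earlier results of these data known. Alternatives covered normalization, filter, variance model, thresholds, values per gene and leaving out mice. Python 3.11.15 with numpy 2.4.6, pandas 2.3.3, scipy 1.17.1 and matplotlib 3.10.9 was used for lists, permutation tests and figures.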

Additional observations from a re-analysis of the deposited data

Results flagged for a closer look

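Single mice stood apart from their group in 19 of 292 groups of 5 values tested, where the gap of the highest or lowest mouse to its neighbour exceeded the critical share of the group's range in Dixon's test (0.71). Chance alone flags about 1 group in 20. Among WT-Control mice, 405 was lowest for Keg1 (11.08) and C9 (13.18) and highest for the lipogenic genes Pnpla3 (7.41) and Pnpla5 (5.18). WT-Control 403 stood apart for Cd36 (8.20) and Psmb9 (8.74), 402 for Cyp2b9 (7.28), Adh4 (11.80) and Nqo1 (5.91), and 401 for Ifi27l2a (7.16). Among WT-DR mice, 421 stood apart for Creb3l3 (9.86), Abcg2 (8.97), Brca1 (6.12), Fabp4 (8.59) and Dnaic1 (3.91). WT-DR 423 stood apart for Sult3a1 (6.43), 424 for Creld2 (9.16) and Prodh (11.21), and 425 for Fkbp5 (9.29).

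The response to restriction differed between genotypes, by the interaction in limma, in 33 of the named genes. Values are the log2 change in WT minus that in Ercc1Δ/- mice, with 5 mice in each of 4 groups. Genes of the sex-biased lists with a positive difference were Sult1e1 (3.90), Cyp2b13 (3.86), Cyp17a1 (3.17) and Fmo4 (0.93), and those with a negative one Cyp4a12a (-3.72), Hsd3b5 (-3.52), Elovl3 (-2.13) and Adh4 (-0.98). Slc22a26 had 2 probe sets with a difference, 2.43 and 2.29, and 1810053B23Rik was at 2.22 and Slc16a5 at 1.95. The complement genes C6 (-1.98), C8a (-1.30) and C9 (-1.08) were called, whereas C8b was not (-1.01, adjusted p = 0.0586). Negative differences were also those of Mfsd2a (-2.60), Gpx6 (-2.09), Fitm1 (-1.89), Acot1 (-1.76), Nat8 (-1.42), Aox3 (-1.18), Plin2 (-1.15), Sort1 (-1.15) and Creb3l3 (-1.10), and positive ones those of Elovl6 (3.19) and Pgd (1.44). The remaining differences were those of Dnaic1 (1.84), Smoc2 (1.81), Tfrc (1.76) and Crym (0.82), and of Spc25 (-2.40), Pnldc1 (-1.79), Ociad2 (-1.75) and Lama3 (-0.89). Among the 20 fits that left out 1 mouse, the call was lost in 16 for Acot1 and Fmo4, 14 for Smoc2, Sort1 and Pgd, 13 for Elovl3 and C8a, 11 for the Slc22a26 probe set at 2.29, 9 for Mfsd2a, 6 for Tfrc, 4 for Cyp17a1, 3 for Crym, 2 for Aox3 and 1 for Hsd3b5 and Plin2, and in none for the others.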

How the results depend on the processing

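Of 2911 values of 146 named genes under the alternatives, 2833 kept their direction and their side of the thresholds, 69 lost and 6 gained a call, and 3 changed sign. The sign changes were those of Mfsd2a without WT-DR 421 (-0.0706, against up to 0.3876 without another mouse), Arntl without WT-Control 403 and 405 (0.0527) and Pck1 in the values per gene (-0.0479). Leaving out 403 and 405, chosen after seeing the data, ended the call of 10 named genes and gave 1631 higher and 1204 lower probe sets, of which 1311 and 1003 were among those reported. Leaving out 1 mouse at a time gave 1363 to 1714 higher probe sets, 1082 to 1332 lower ones and 157 to 752 interactions. The values per gene, a table with fewer features, gave 488 higher, 507 lower and 185 interactions. With no fold threshold 4627 were higher and 4226 lower, and with a threshold of 2-fold 430 were higher, 398 lower and 131 had an interaction. Where they were counted, higher and lower probe sets under the other settings of normalization, filter and variance were within 1.5 times those reported. Scaling to equal median absolute deviation is given for the interactions only (504). The difference in slope on gene length stayed positive and uncalled under all settings (0.0193 to 0.0472, exact permutation p from 0.0873 to 0.4286). Of 2200 counts of list members, 360 changed by 1 or more and 20 by 3 or more. No paired analysis was possible because the groups share no animal numbers. The number of arrays limits the precision, and levels about the array medians, near 4.2, are close to the floor of the array.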

Other observations

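Gene families taken by symbol are given as counts, beside 2.85% of all genes higher and 3.52% lower. Of 67 measured cytochrome P450 genes 17 were higher and 12 lower, with a median of -0.01. The 19 hydroxysteroid dehydrogenase genes held 6 lower and 0 higher members: Hsd17b2, Hsd3b2, Hsd3b3, Hsd3b5, Hsd3b6 and Hsd3b7. Members of these 2 families, of the carboxylesterases (13 genes, 3 lower) and of the Serpina cluster (15 genes, 4 lower) resemble each other in sequence, and probe sets may not tell close relatives apart. Of 19 glutathione transferase genes 5 were higher and 2 lower, and of 342 solute carriers 21 were higher and 17 lower. Of 42 ABC transporters 5 were higher, among them Abcb1a, Abcc4 and Abcd2, and 2 lower. The aldehyde dehydrogenases held 1 higher of 21, the acyl-CoA thioesterases 1 higher of 12, the Cyp4f genes 1 lower of 7 and the UDP-glucuronosyltransferases 2 lower of 12. Such small families are not read as having more or fewer calls than all genes.

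Among liver transcription factors and nuclear receptors 6 of 46 were higher and 3 lower. Zbtb16 (1.53), a zinc finger repressor, Prox1 (0.84) and Foxa2 (0.61) were higher, and Foxa1 (-0.78) and Zhx2 (-0.61), a repressor of fetal liver genes, were lower. Of 23 genes of iron and haem handling, Tfrc (1.48) and Hamp2 (1.80) were higher, while Alas2 (-1.71), the aminolevulinate synthase of red cell precursors, and Uros (-0.77) were lower. Genes of the pericentral zone were split 3 and 1 of 20, with Cyp2c37 higher (1.65) and Cyp1a2 lower (-1.49), and those of the periportal zone 2 and 2 of 20, with Cyp2f2 lower (-1.01). Nnmt, which methylates nicotinamide, was the only called gene of 15 in sirtuin and NAD metabolism (1.04). In the methionine cycle and one-carbon genes, Mthfd1l (0.80) and Mtrr (0.79) were higher with Mat1a, 3 of 20 in all. The collagens Col3a1 (-0.90) and Col14a1 (-0.99) were the called genes of 23 on the matrix list, both lower.

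Several called probe sets are paired with no gene in the annotation used here, and 1 of their groups lies about the array medians, so that the size of the change is uncertain. Besides 1449525_PM_at, the probe set 1458442_PM_at was at 3.44 to 4.09 in WT-Control and 9.68 to 10.18 in WT-DR (6.23 ± 0.49). The probe set 1448092_PM_x_at fell, from 7.99 to 9.96 in WT-Control down to 3.15 to 4.78 in WT-DR (-5.09 ± 0.47), and so did 1423397_PM_at (-4.20 ± 0.51).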
